A study of Mus musculus with 25 samples.

Results

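The CpG sites described here are those that the deposited methylation table annotates to a 3′UTR and to no other feature. They were taken on chromosomes 1 to 19, in any relation to a CpG island, where the average coverage was 10 reads or more. This gave 13367 of the 283974 distinct CpGs in the table. Of these, 7270 had a value in at least 3 mice of each diet group tested and entered the tests, and 5756 had a value in all 21 libraries used.

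The study measured DNA methylation by reduced representation bisulfite sequencing, which reads CpGs near MspI cut sites, in mammary fat pads of wild-type C57BL/6N mice. Mice stayed lean on the control diet D12450J (Control) or became obese on the 60% fat diet D12492, and obese mice then either stayed obese (Obese) or were moved to a weight-loss diet. The diets were Mediterranean-style food with calories cut by 30% (MCR, 3 mice), low-fat food with the same 30% cut (LFCR, 4 mice), low-fat food without restriction (LFD, 3 mice) and intermittent calorie restriction (ICR, 5 mice), used here beside 1 Obese mouse (number 22) and 5 Control mice. All mice received E0771 cells, a mouse mammary cancer line, in the 4th mammary fat pad, 25 weeks after randomization, and the tissue was the 9th pad on the opposite side, taken at the endpoint. Every group, Control included, therefore comes from tumor-bearing animals, and the sequenced DNA comes from all cells of the pad.

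A 3′UTR is the stretch of a messenger RNA after its stop codon. Proteins and microRNAs bind there and set how long the message lasts and how often it is translated, and alternative polyadenylation can shorten or lengthen it. In the DNA, most 3′UTR sequence lies outside CpG islands at the transcribed end of a gene, and such sequence usually carries methylation, in contrast to the promoter islands at gene starts. A microRNA finds its targets mainly through its seed, bases 2 to 8 from the 5′ end, and the CpGs of microRNA genes appear in this annotation as well.

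The annotation was checked against RefSeq. Of the 3422 gene names given to these CpGs, 86.0% were found in RefSeq, and 76.2% of the CpGs belonged to a protein-coding gene. Among 8368 pairs of a CpG and a protein-coding gene, the CpG lay a median of 1160 bases from the gene's end, and 90.4% of pairs were nearer to the end than to the start. The label also covers transcripts that have no coding sequence: 1143 CpGs belonged to a long noncoding RNA gene and 35 to a microRNA gene and no coding gene. Where RefSeq gives a hairpin, 53 CpGs in hairpins of the plus strand and 1 on the minus strand were annotated to a 3′UTR. Against these, 6 and 37 were annotated to a 5′UTR, and 5 and 8 to a first exon. The 1 on the minus strand also lies in the plus-strand hairpin of Mir9-2, whose name the annotation gives it. As between 3′UTR and 5′UTR, the label thus went with the strand for microRNA genes.

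The sequences shown are those of microRNAs in which member CpGs differed between diets, from RefSeq with the build GRCm38.p6, written 5′ to 3′. In the mature sequences the capitals mark the seed.
mmu-miR-99b-5p, plus strand of chr17:17830194-17830215: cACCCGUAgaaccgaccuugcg
mmu-miR-99b-3p, plus strand of chr17:17830232-17830253: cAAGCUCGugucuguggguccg
mmu-miR-26a-5p, plus strand of chr9:119031811-119031832: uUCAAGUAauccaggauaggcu
mmu-miR-455-3p: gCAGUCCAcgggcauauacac
mmu-miR-7018-3p: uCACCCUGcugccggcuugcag
mmu-miR-7240-5p: uUGGAGAGgaccgccgucgga
mmu-miR-7240-3p: cGCCGUUGguccucuccaaca
mmu-miR-671-3p, shown for a seed CpG at which the groups were close: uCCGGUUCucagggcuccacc

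The seed of miR-99b-5p is shared with miR-99a-5p and miR-100-5p, and that of miR-99b-3p with miR-99a-3p. The seed of miR-26a-5p is shared with miR-26b-5p, and that of miR-7018-3p with miR-7023-3p and miR-7068-3p. No other mouse microRNA in the RefSeq table shared the seed of miR-455-3p, miR-7240-5p or miR-7240-3p. In Mir26a-1 the 2 CpGs that entered the tests lie before the mature sequences, so the first 30 bases of the hairpin are given, with these CpGs in capitals; miR-26a-5p begins at base 16.
Mir26a-1 hairpin, plus strand of chr9:119031796-119031825: aaggcCGuggccuCGuucaaguaauccagg

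A few 3′UTR CpGs fall inside the promoter of another gene or transcript, and for these RefSeq gives the surrounding bases; 219 members lay in such a window and 52.5% of them were part of the MspI site CCGG. The 5 shown are members that differed between MCR and Control, with the CpG in capitals and 30 bases of the plus strand.
Tecr/D830024N08Rik, chr8:83583502-83583531: gaaatctggagagcCGgccacattaggaca
Slc4a8, chr15:100815775-100815804: cattcagtcactccCGgtgtgcgtttggag
Gm12841, in the promoter window of B4galt2, chr4:117883681-117883710: aagagaccaggagcCGgatggctaaggccc
Gm26688, in the promoter window of Tfap2a, chr13:40735063-40735092: gccactcctgactcCGcccaggggcttact
CpG with no gene name, in the promoter window of Gp1bb, chr16:18622510-18622539: ggaagggtggacgcCGagaataaattaggg

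The libraries differed in how much they covered. The share of the 13367 CpGs with a value was 59.4 to 92.6% in MCR, 83.5 to 99.2% in LFCR, 91.2 to 97.1% in LFD, 67.9 to 98.9% in ICR, 99.9% in Obese mouse 22 and 59.4 to 99.7% in Control. Average coverage had quartiles of 21.1, 35.3 and 62.8 reads. Read counts per mouse were not used here, so the counting error of a single mouse's value is unknown, and the spread between mice stands in for it. Another 4 libraries, those of Obese mice 27, 28 and 40 and LFD mouse 46, stood apart: over 334 3′UTR CpGs with under 5% methylation in Control they read 50.7 to 51.2%, against 1.32 to 2.17% in the other 21 libraries. They are left out of every value below unless stated. Nothing in the labels says whether mice of a group were separate cohorts or cage mates.

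In Control mice the 3′UTR CpGs were methylated at 60.1 ± 1.77% on average (SD, n = 5 mice, 5756 CpGs). That level lay between the 71.9% of gene body CpGs in open sea, which means outside islands, shores and shelves, and the 21.4% of first exon CpGs in islands. Open sea held 59.5% of the 3′UTR CpGs, against 59.1% of all CpGs of the table, shores held 19.8% against 14.7%, islands 12.9% against 20.1% and shelves 7.74% against 6.04%. The members thus held a smaller share of island CpGs than the table as a whole.

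The mean level of these CpGs was lower in MCR mice than in any Control mouse. The 3 MCR mice read 50.03, 49.4 and 50.5%. The 4 LFCR mice read 49.3, 49.8, 55.5 and 58.3%, the 3 LFD mice 51.3, 58.8 and 56.0%, and the 5 ICR mice 56.1, 54.0, 57.1, 57.3 and 58.7%. Obese mouse 22 read 58.6%, and the 5 Control mice read 60.6, 62.6, 59.4, 57.7 and 60.03%. All 3 MCR mice, 3 of 4 LFCR, 2 of 3 LFD and 4 of 5 ICR mice were below the lowest Control mouse, while Obese mouse 22 was inside the Control range.

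Group means were 49.99 ± 0.55% in MCR, 53.2 ± 4.37% in LFCR, 55.3 ± 3.77% in LFD and 56.7 ± 1.75% in ICR (SD over mice), each against the same Control mean of 60.1 ± 1.77%. Set against Control, the mean difference was -10.1 points in MCR, -6.84 in LFCR, -4.73 in LFD and -3.42 in ICR. Over 95331 CpGs of all features these were -9.31, -6.10, -4.33 and -3.04 points, so the lower level was shared with the rest of the table. In a mixed tissue, a change in which cells are present and a change of methylation within cells cannot be told apart, and this holds for every result below.

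**Figure D1:**
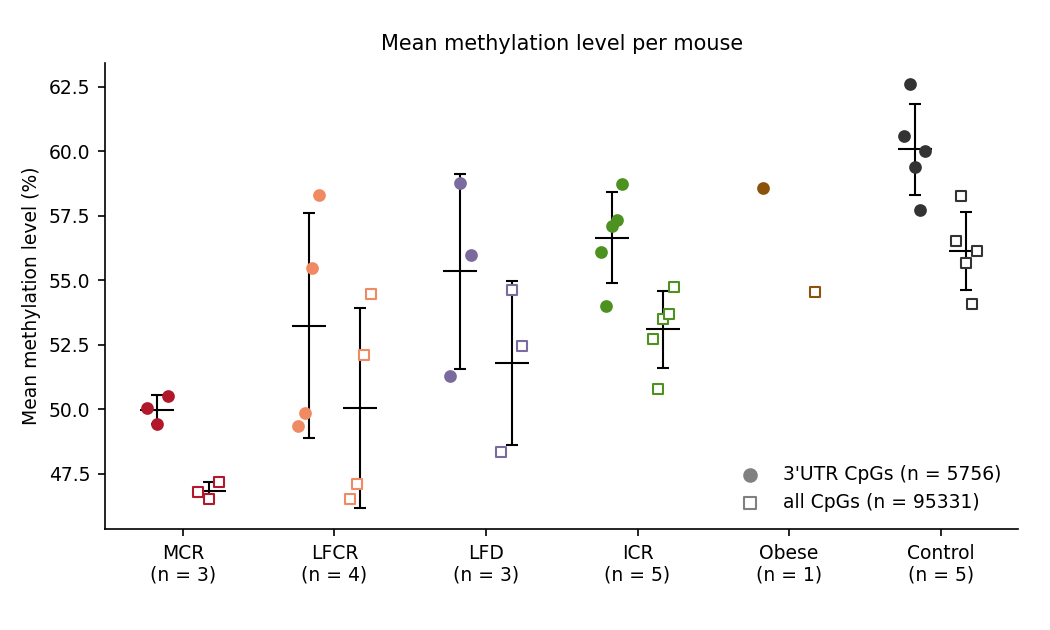
Mean methylation level in percent (vertical axis) of each mouse, by diet group along the horizontal axis, over 5756 3′UTR CpGs (filled circles) and over 95331 CpGs of all features (open squares). The 3 MCR mice lie between 49.4 and 50.5% for 3′UTR CpGs, below all 5 Control mice at 57.7 to 62.6%, while the LFCR mice spread between 49.3 and 58.3%.

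Levels within the 3′UTR CpGs depended on their position, and the lower level in MCR was seen in each class. Open sea CpGs averaged 61.5% in MCR and 72.5% in Control, a difference of -11.0 points, beside -10.6 for open sea CpGs of all features. Shelf CpGs differed by -12.9 points, beside -11.0 over all features. Shore CpGs differed by -7.85 points, less than the -8.58 over all features. Island CpGs of 3′UTRs averaged 28.0% in MCR against 37.0% in Control, a difference of -9.02 points, beside 19.9% against 26.2%, a difference of -6.24 points, for islands of all features. CpGs of protein-coding genes differed by -10.7 points and those of long noncoding RNA genes by -8.73 points. The 12 CpGs given to a microRNA gene and no coding gene, with a value in all 21 libraries, differed by -19.1 points. They are a small set, and how many of the 12 lie in 1 gene, such as Mir99b described below, is not given here. The 36 microRNA CpGs tested below are another set, which includes CpGs also given to a coding gene. Of those 36, 33.3% were called lower, beside 32.8% of all CpGs. The differences between these classes were not tested.

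Single CpGs gave the same order of diets. In MCR against Control, 2717 of the 7270 tested CpGs were called lower and 412 higher by limma at an adjusted p under 0.05, which is 37.4% and 5.67% of them, beside 32.8% and 4.54% of all 129215 CpGs tested. In LFCR, 1042 were lower and 122 higher, 14.3% and 1.68%, beside 12.1% and 1.48% of all CpGs. The shares among 3′UTR CpGs were thus close to those of the whole table in both comparisons. In LFD and in ICR none was called in either direction by limma, as over all CpGs (0.0% each), with 1593 and 1085 3′UTR CpGs at an unadjusted p under 0.05. Those counts are 21.9% and 14.9% of the tested 3′UTR CpGs, beside 18.9% and 12.8% of all CpGs tested. The 4 comparisons share their Control mice.

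The median difference over the tested 3′UTR CpGs was -8.89 points in MCR, -5.62 in LFCR, -3.85 in LFD and -2.79 in ICR, beside -7.30, -4.51, -3.07 and -2.11 over all CpGs tested. In Obese mouse 22, which has no replicate, it was -1.12 beside -0.788. The MCR difference depended on the level that a CpG had in Control. It was 0.00 points at the median of the 776 3′UTR CpGs under 10% in Control, and -20.2 points for the 1034 CpGs at 50 to 70%, then -13.9 for the 2703 CpGs at 70 to 90% and -8.35 for the 1171 CpGs at 90% or more. Over all CpGs the values in the bins at 50 to 70%, 70 to 90% and 90% or more were -19.6, -12.3 and -7.56 points. Since these bins are cut on Control values that are themselves part of the difference, they serve as a description only.

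Higher calls in MCR made up 5.67% of the tested 3′UTR CpGs over all levels, beside 4.54% of all CpGs tested. They were most frequent among CpGs with intermediate to low Control levels. The bins are again cut on Control values, and the counts per bin are not set beside those of other CpGs, so they serve as a description only. Of the 776 CpGs under 10% in Control, 59 were called higher and 13 lower in MCR, and of the 956 at 10 to 30%, 163 were higher and 184 lower. At 30 to 50% 114 of 630 were higher and 220 lower, and at 50 to 70% 55 of 1034 were higher and 555 lower. Among the 1171 CpGs at 90% or more, none was higher and 391 were lower by limma; at 70 to 90%, 21 were higher and 1354 lower.

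**Figure D2:**
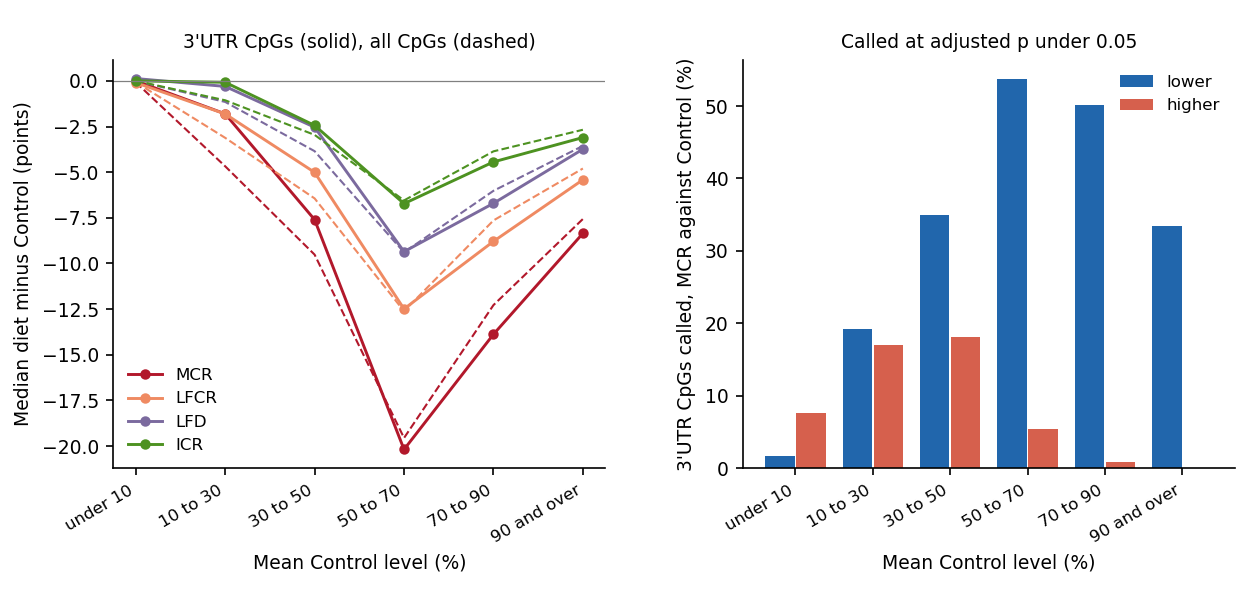
Left, median diet minus Control difference in points (vertical axis) of 3′UTR CpGs in bins of their mean Control level in percent (horizontal axis), 1 line per diet. Right, the percentage of those CpGs called lower or higher in MCR against Control in each bin. The MCR median reaches -20.2 points at 50 to 70% and is 0.00 under 10%.

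The share of CpGs lower in MCR was similar at all distances from the gene's end. Of 1115 CpGs within 500 bases of the RefSeq end, 39.7% were called lower, with a median difference of -9.38 points, against 42.1% and -10.3 points for 1777 CpGs at 500 to 2000 bases. At 2000 to 5000 bases 40.8% of 689 CpGs were lower, and beyond 5000 bases 36.8% of 690. By chromosome the share called lower was, for example, 21.02% of 157 CpGs on chromosome 3 and 46.7% of 240 CpGs on chromosome 19. These shares were not tested against each other. The shares among all CpGs by distance or by chromosome are not given here, so whether the spread is particular to 3′UTR CpGs is not known.

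CpGs of the same gene were then averaged into a region where at least 3 were tested. This gave 898 3′UTR regions with a median of 5 CpGs and a median span of 258.5 bases; 151 of them share CpGs with a region of another gene name, and 60 span over 10000 bases. In Control, 469 regions were at 70% or more and 70 under 10%. CpGs of a region were alike: the SD of the MCR difference among the CpGs of a region had a median of 6.95 points, against 15.6 points over all tested members. In MCR against Control, 551 regions were lower and 68 higher by limma, 61.4% and 7.57% of them, beside 55.9% lower and 4.64% higher among all 9008 gene regions. In 434 of the 551 lower regions every CpG had a difference below 0, and in 43 of the 68 higher regions every CpG was above 0.

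The lower regions with the largest differences included 3′UTRs of a blood cell transcription factor, signalling proteins and an enzyme of ADP-ribose removal. Spi1 encodes PU.1, an ETS-family transcription factor of myeloid and B cells, and its 8 CpGs at chr2:91115459-91115595 all lie in an island. Their mean level was 2.88, 9.42 and 10.7% in the MCR mice and 9.27, 3.90, 34.6 and 52.2% in the LFCR mice, against 68.1, 51.7 and 52.6% in the 3 Control mice with enough values. No MCR mouse overlapped Control, while the LFCR mice reached from the MCR range into the Control range. The MCR difference was -49.8 points (SE 11.8, limma adjusted p = 0.0026).

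H13 encodes signal peptide peptidase, and the mouse gene is known for imprinted use of alternative polyadenylation sites. Its 3′UTR region at chr2:152706353-152707836 held 40 CpGs, 27 of them in an island, and read 11.4, 11.5 and 11.4% in MCR, 10.1, 5.80, 34.7 and 43.5% in LFCR and 61.7, 73.8, 51.2, 43.6 and 50.5% in Control. The 3 MCR mice were nearly alike and below every Control mouse, with a difference of -44.7 points (SE 8.97, limma adjusted p = 0.00081). Adprhl2, an ADP-ribose-removing hydrolase, read 17.99, 23.02 and 17.9% in MCR against 64.01, 81.3, 63.2, 59.4 and 61.7% in Control at 3 CpGs of chr4:126316121-126316229. Its difference was -46.3 points (SE 7.99, limma adjusted p = 0.00052), with no overlap.

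The homeobox gene Hoxa3 shares its region Gm29430/Hoxa3/Hoxaas3 with the antisense RNA Hoxaas3 and with Gm29430, so the 8 CpGs at chr6:52185382-52185601 cannot be given to 1 gene. They read 7.52, 9.79 and 8.49% in MCR against 32, 72.1, 56.1, 40.9 and 56.3% in Control, a difference of -42.9 points. Control mice differed widely among themselves there, yet all lay above the MCR mice. Exoc3l2, an exocyst-like protein, had 24 CpGs at chr7:19495255-19496253 with 26.5, 24.5 and 26.2% in MCR against 69.1, 76.6, 61.8, 58.9 and 68.6% in Control, a difference of -41.3 points. Its CpG at position 19495999 had a difference of -58.0 points.

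The other 5 of the 10 lower regions had differences of -44.5 points (2700081O15Rik, 32 CpGs), -41.97 (Rrp7a/Serhl, of which Rrp7a acts in ribosomal RNA processing), -41.8 (Vav2), -41.3 (Agap2, an Arf GTPase-activating protein) and -40.4 points (B230206L02Rik, a long noncoding RNA). Each of the 10 kept its call when any single MCR or Control mouse was left out, and in none did the MCR and Control ranges overlap. The 10 were picked for large differences among called regions, so kept calls and separate ranges follow largely from that choice. The share of all gene regions without overlap is not given here.

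Some 3′UTRs were more methylated in MCR. Mir142hg, the host transcript of the blood cell microRNA miR-142, read 79.9, 81.3 and 71.8% in MCR, 77.6, 81.3, 55.98 and 39.3% in LFCR and 23.3, 19.2, 39.9, 43.4 and 26.02% in Control at 6 CpGs of chr11:87757156-87757235. The MCR difference was +47.3 points (SE 9.14, limma adjusted p = 0.00068). Ccnd1, which encodes cyclin D1 and drives entry into S phase, read 59.2, 65.2 and 64.2% in MCR, 55.2, 54.9, 31.3 and 27.3% in LFCR and 32.3, 13.2, 29.8, 35.6 and 22.6% in Control at 3 CpGs of chr7:144932566-144932598. Its MCR difference was +36.2 points (SE 6.71, limma adjusted p = 0.0006), and all MCR mice were above all Control mice at both genes.

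Asphd2 had 9 CpGs at chr5:112384823-112385043, with 79.3, 85.1 and 61.7% in MCR against 23.9, 13.5, 34.7, 42.6 and 34.3% in Control, a difference of +45.6 points. March9, an E3 ubiquitin ligase, read 78.8, 70.98 and 85.1% in MCR against 28.7, 27.8, 46.2, 48.4 and 31.6% in Control, a difference of +41.7 points. Pik3r2, a regulatory subunit of PI3-kinase, read 85.4, 86.7 and 78.8% in MCR against 58.6, 43.1, 59.1, 61.03 and 51.7% in Control at 6 island CpGs, a difference of +28.9 points. The groups did not overlap in any of these. The other 5 of the 10 higher regions were E230001N04Rik, a long noncoding RNA (+38.03 points), Plscr3/Tnk1, a phospholipid scramblase and a tyrosine kinase (+32.8), 1700029I15Rik/Mapk8ip1, of which Mapk8ip1 is a scaffold of JNK signalling (+30.6), Mafg, a small Maf transcription factor (+29.5), and Shisal1 (+27.3). Leaving out any single MCR or Control mouse changed none of these calls, and no ranges overlapped. Here too the regions were picked for large differences, so this follows largely from the choice.

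**Figure D3:**
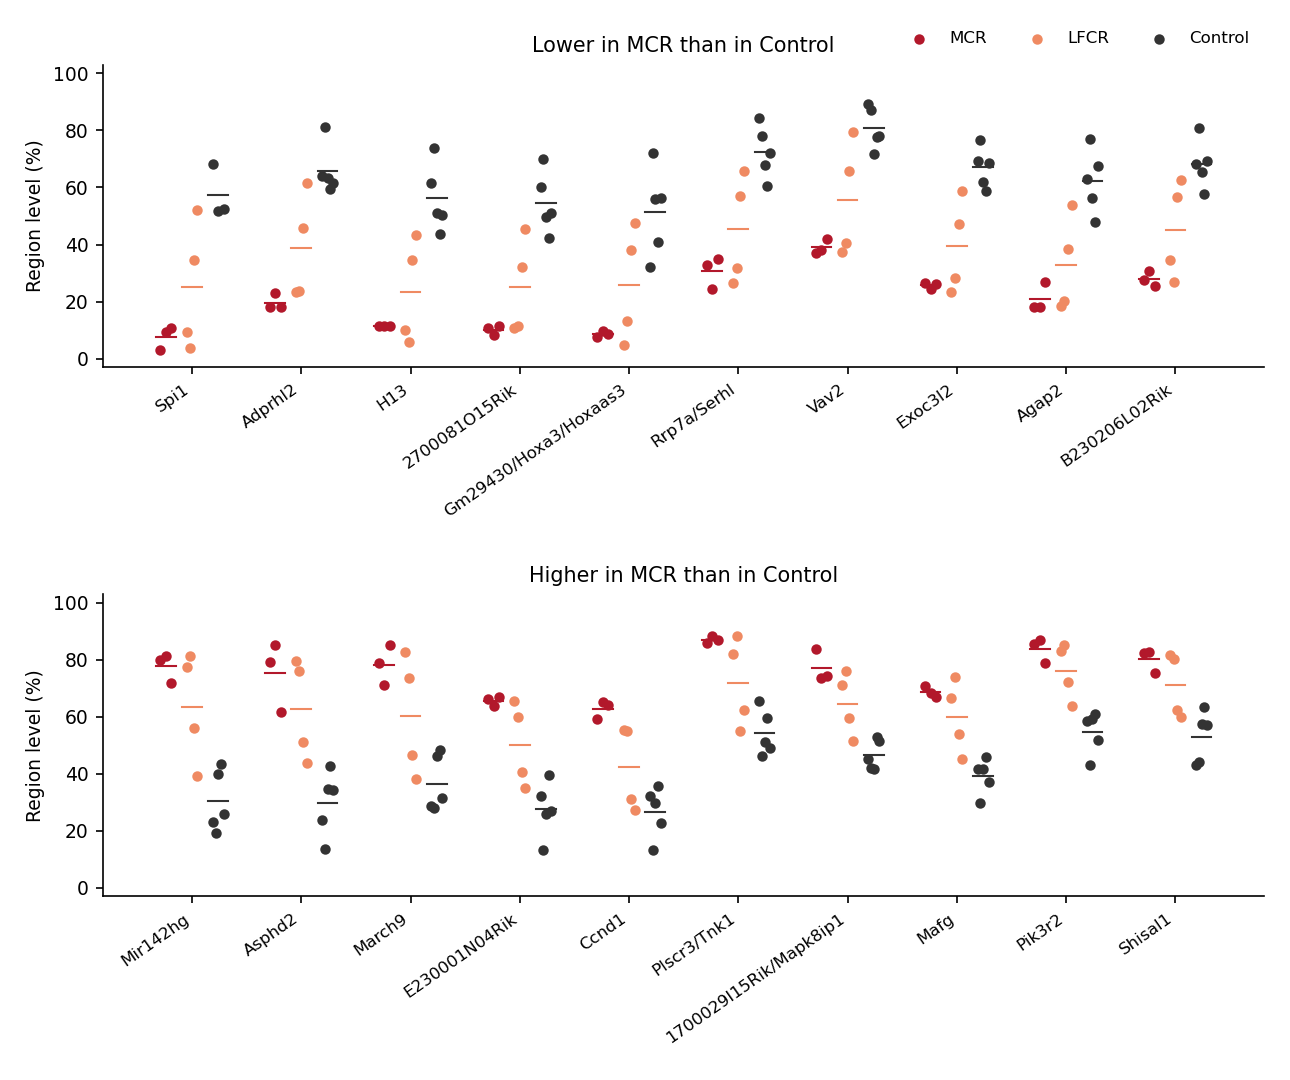
Mean methylation level in percent (vertical axis) of the 10 3′UTR regions with the largest lower and the 10 with the largest higher differences in MCR against Control, with MCR, LFCR and Control mice as points and group means as bars. MCR and Control mice do not overlap at any of the 20 regions, which were picked for large differences between them, and LFCR mice are spread between them.

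In LFCR, 362 of the 898 regions were lower and 45 higher than Control by limma, 40.3% and 5.01% of them, beside 36.4% and 2.74% of all gene regions. The regions of largest difference included H13 (-32.6 points), Spi1 (-32.5) and Exoc3l2 (-27.7) among the lower and Mir142hg (+33.2) and Asphd2 (+32.9) among the higher. St6galnac4, a sialyltransferase, was also among them, with 24.6, 41.1, 50.7 and 63.2% in LFCR against 76.8, 84.5, 69.5, 71.7 and 64.3% in Control, as was Scnn1a, a subunit of the epithelial sodium channel (-29.0 points). These counts rested on 2 mice: without LFCR mouse 63, or without LFCR mouse 67, no region was called by limma, with 371 and 382 at an unadjusted p under 0.05, and without Control mouse 2 there were 222 calls. Of the 20 named LFCR regions, 6 had ranges apart from Control, and each of the 20 lost its call without at least 1 mouse. The 20 were picked for large differences among called regions, which favours separate ranges, and the share among all gene regions is not given here.

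The LFCR mice fell in different places at the 20 regions named for MCR. Each mouse's level was placed between the Control mean, set at 0%, and the MCR mean, set at 100%. LFCR mice 63 and 67 lay at medians of 99.7 and 98.7%, and LFCR mice 69 and 72 at 43.1 and 19.3%. LFD mouse 42 lay at 85.1%, and LFD mice 47 and 48 at 21.3 and 42.7%. The ICR mice lay at 38.9, 61.8, 44.7, 25.1 and 18.9%, and Obese mouse 22 at 16.6%. LFCR mice 63 and 67, LFD mouse 42 and ICR mouse 103 were nearer to the MCR mean than to the Control mean at each of the 20 regions, and LFCR mouse 72, LFD mouse 47, ICR mouse 112 and Obese mouse 22 at none. The 20 regions were picked for a large gap between MCR and Control. The mice nearer to MCR at each region also had the lowest means outside MCR over 95331 CpGs of all features, at 46.5, 47.1, 48.3 and 50.8%. Those nearer at none had the highest such means outside MCR and Control, at 54.5, 54.6, 54.8 and 54.5%. The places at these regions thus went with the level over the whole table. Mice on the same diet lay far apart.

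In LFD and ICR no 3′UTR region was called by limma, as among all gene regions (0.0% each), with 300 and 198 of the 898 at an unadjusted p under 0.05. Those counts are 33.4% and 22.0%, beside 28.9% and 17.6% of all gene regions. Without LFD mouse 47, 100 regions were called in LFD. The LFD regions with the smallest p were 5031439G07Rik (-7.90 points), Shank1, a synaptic scaffold (+7.40), Otop3, a proton channel (-21.2), Cuedc1 (+11.9) and Tpcn1, a cation channel of endosomes and lysosomes (-15.5), each at limma adjusted p of 0.099 to 0.10. Otop3 read 33.5, 46.4 and 43.4% in LFD against 58.9, 67.4, 68.6, 57.9 and 58.7% in Control. The ranges of LFD and Control did not overlap in these 5 regions, which were picked for their small p.

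In ICR the smallest p belonged to Tgfb1, the growth factor TGF-beta 1, at 10 CpGs of chr7:25704948-25705006. It read 29.9, 20.3, 36.2, 29.4 and 28.4% in ICR against 43.5, 42.6, 48.5, 38.95 and 51.9% in Control, a difference of -16.2 points (SE 3.47, limma adjusted p = 0.27). Ppfia4 (-8.86 points), Tulp1 (+3.47), Crybb1, a lens crystallin (-9.87), and Gltpd2 (-30.8) followed with the same adjusted p, and ranges overlapped only in Gltpd2. All 5 regions were picked for their small p.

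The diets were also compared with each other, and MCR and ICR differed at more CpGs than the other 2 pairs tested. MCR against ICR gave 647 lower and 81 higher CpGs by limma, beside 8.01% lower, 0.849% higher and 8.86% in either direction among all CpGs, but between 72 and 1133 calls when a mouse was left out, the fewest without ICR mouse 112. At the level of regions it gave 308 lower and 27 higher, 34.3% and 3.01% of those tested, beside 33.5% and 1.89% of all gene regions, but 13 lower and 2 higher without MCR mouse 95, 108 and 10 without MCR 85, 134 and 9 without ICR 112, 141 and 11 without MCR 96, and 187 and 13 without ICR 106. MCR against LFCR gave 2 lower CpGs and no higher one, with 855 at an unadjusted p under 0.05, beside 0.00774% lower, 0.00232% higher and 0.0101% in either direction among all CpGs. LFCR against LFD gave none by limma, as over all CpGs (0.0%), with 445 at an unadjusted p under 0.05. The 855 and 445 are 11.8% and 6.12% of the tested 3′UTR CpGs, beside 10.8% and 5.24% of all CpGs tested.

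MicroRNA genes held 64 of the member CpGs in 32 genes, 27 of them within a mature sequence and 9 in a seed. In MCR against Control 12 of the 36 tested were lower, in 5 genes, and 1 was higher. The lower share of 33.3% was near the 32.8% of all CpGs and the 37.4% of 3′UTR CpGs. Mir99b had 5 lower CpGs, in both of its mature sequences. The miR-99 family is known for acting on mTOR messages in human cells. The CpG at base 5 of miR-99b-5p, inside its seed ACCCGUA, read 46.6, 45 and 51.8% in MCR, 43.5, 65.7, 60 and 78.7% in LFCR and 75, 85.1, 75.6, 69.1 and 81.8% in Control, a difference of -29.5 points in MCR (SE 6.53, limma adjusted p = 0.0031).

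The seed CpG of miR-99b-3p, at base 7, read 32.4, 21.7 and 31.6% in MCR, 29.1, 38.6, 51.8 and 68.4% in LFCR and 76.9, 76.2, 66.5, 53.4 and 69.1% in Control. Its MCR difference was -39.8 points (SE 7.18, limma adjusted p = 0.0012). Both seed CpGs were lower in every MCR mouse than in every Control mouse. They are described because they were called, so this follows largely from that choice. Of the other 3 CpGs of Mir99b, base 13 of miR-99b-5p differed by -33.4 points, base 21 by -11.2 points and base 21 of miR-99b-3p by -36.9 points in MCR. In LFCR base 7 of miR-99b-3p alone passed, with -21.5 points (limma adjusted p = 0.042).

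The 2 CpGs at the start of the Mir26a-1 hairpin were the first and second of the lower CpGs named for MCR by size of difference. MiR-26a is known for its part in the differentiation of fat cells, and its gene lies within Ctdspl, to which the table also gives these CpGs. The CpG at hairpin base 14, position 119031809 of chromosome 9, read 28.6, 0 and 27.1% in MCR, 14.3, 6.52, 42.9 and 48.98% in LFCR and 88.2, 88.9, 64.6, 88.9 and 62.03% in Control. Its difference was -60.0 points in MCR (SE 11.3, limma adjusted p = 0.0014) and -50.4 in LFCR (limma adjusted p = 0.017). The CpG at hairpin base 6, 8 bases upstream, read 33.3, 0 and 31.8% in MCR, 15.6, 19.05, 54.5 and 56.8% in LFCR and 88.2, 90.3, 63.5, 87.5 and 72.5% in Control, a difference of -58.7 points in MCR. In both, all MCR and LFCR mice lay below all Control mice. The 2 CpGs were picked for large MCR differences, and base 14 also for a large LFCR difference, so this follows largely from that choice. The share of all CpGs without overlap is not given here. Another 3 member CpGs at hairpin bases 75, 81 and 83, the first of them base 21 of miR-26a-1-3p, had values in 2 MCR mice and 3 Control mice and were not tested. They averaged 30.7, 29.2 and 27.3% in MCR against 69.6, 74.7 and 77.7% in Control.

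Other microRNA CpGs differed less. In MCR base 9 of miR-455-3p differed by -9.39 points and base 13 of miR-7018-3p by -15.1 points, while base 12 of miR-7240-5p differed by -13.7 and base 1 of miR-7240-3p by -15.3 points. The higher CpG was at base 47 of the Mir138-2 hairpin, with 45, 60 and 54.5% in MCR against 26.3, 44 and 30% in the 3 Control mice with a value, +19.7 points (limma adjusted p = 0.015). At base 3 of miR-671-3p, in the seed, the level was 28.5 ± 7.17% in MCR and 28.9 ± 3.57% in Control, a difference of -0.37 points with overlapping groups.

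**Figure D4:**
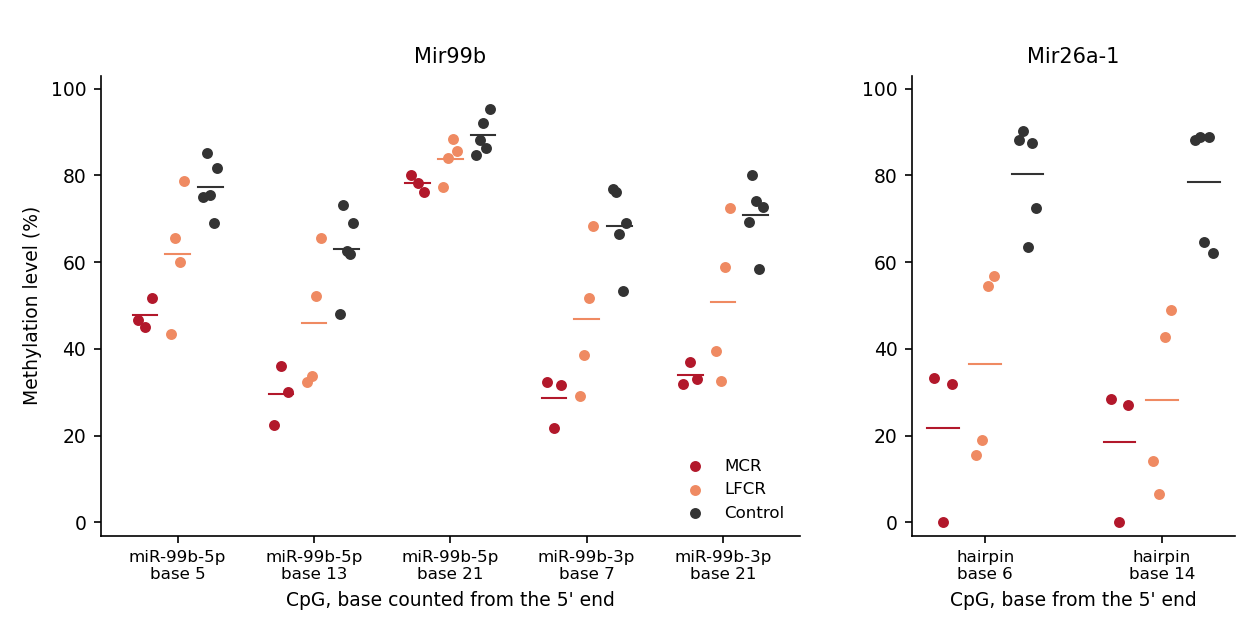
Methylation level in percent (vertical axis) at 5 CpGs of Mir99b (left) and 2 CpGs of the Mir26a-1 hairpin (right), named by their base from the 5′ end, with 1 point per mouse of MCR, LFCR and Control and bars at group means. At hairpin base 14 of Mir26a-1 the MCR mice lie at 0 to 28.6%, against 62.0 to 88.9% in Control.

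Among the CpGs that overlap a promoter window, those of Tecr/D830024N08Rik (-32.3 points, limma adjusted p = 0.019), Slc4a8 (-29.2, adjusted p = 0.011), Gm12841 (-27.5, adjusted p = 0.023) and Gm26688 (-25.2, adjusted p = 0.017) were lower in MCR. The CpG in the Gp1bb window was higher, with 57.5, 49.02 and 61.4% in MCR against 29.1, 30.1, 31.01, 38.9 and 37.4% in Control, +22.7 points (limma adjusted p = 0.0015) and no overlap. It is shown because it differed, so the lack of overlap follows largely from that choice. Tecr is a reductase of very-long-chain fatty acid elongation, and Gp1bb a platelet membrane protein.

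The 3′UTR of a gene did not always go with the rest of the gene. In 767 genes with a region in both places, the Control level had a median of 74.2% in the 3′UTR and 61.7% in the gene body, and the MCR difference a median of -9.36 and -8.92 points. Of the 492 genes with a lower 3′UTR in MCR, the body was lower in 397, higher in 16 and not called in 79. Of the 60 genes with a higher 3′UTR, the body was lower in 26, higher in 15 and not called in 19. Over all 767 genes the body was lower in 557, or 72.6%, and higher in 44. In 309 genes with a first exon region, the 3′UTR had a median Control level of 67.5% and the first exon 19.6%, with median MCR differences of -9.52 and -2.53 points. Of 191 with a lower 3′UTR, the first exon was lower in 84, higher in 12 and not called in 95, and of 27 with a higher 3′UTR it was lower in 10, higher in 3 and not called in 14. Over all 309 genes the first exon was lower in 123, or 39.8%, and higher in 22. Both regions of a gene come from the same mice and libraries.

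Genes whose ends went in opposite directions are named here after their values were seen. Dok3, an adaptor protein of immune cells, had a lower 3′UTR in MCR (47.3 ± 5.95% against 79.9 ± 4.56% in Control) and a higher first exon (78.1 ± 3.62% against 30.7 ± 10.1%). Spi1 had the lower 3′UTR given above and a higher gene body, 79.7 ± 6.36% in MCR against 59.3 ± 6.35% in Control, at CpGs upstream of it (+20.5 points, limma adjusted p = 0.0019). Myog, the muscle transcription factor myogenin, had a 3′UTR at 16.4 ± 2.89% in MCR against 44.4 ± 7.24% in Control and a first exon at 85.0 ± 0.46% against 67.8 ± 3.62%. The bodies of Dok3 and Myog were lower, by -12.6 points (limma adjusted p = 0.0014) and -8.97 points (adjusted p = 0.0064), so in these 2 genes the first exon was higher and both other regions lower.

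Pik3r2 and Cuedc1 went the other way. Pik3r2 had a first exon at 63.3 ± 2.41% in MCR against 79.5 ± 3.64% in Control, beside its higher 3′UTR. Cuedc1 had a 3′UTR at 39.1 ± 1.53% in MCR against 21.1 ± 2.43% in Control and a first exon at 63.4 ± 1.34% against 83.0 ± 2.35%. Ccnd1, by contrast, differed by +36.2 points in the 3′UTR, +8.49 in the body and -0.07 in the first exon, and H13 by -44.7, -16.1 and -32.0 points.

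**Figure D5:**
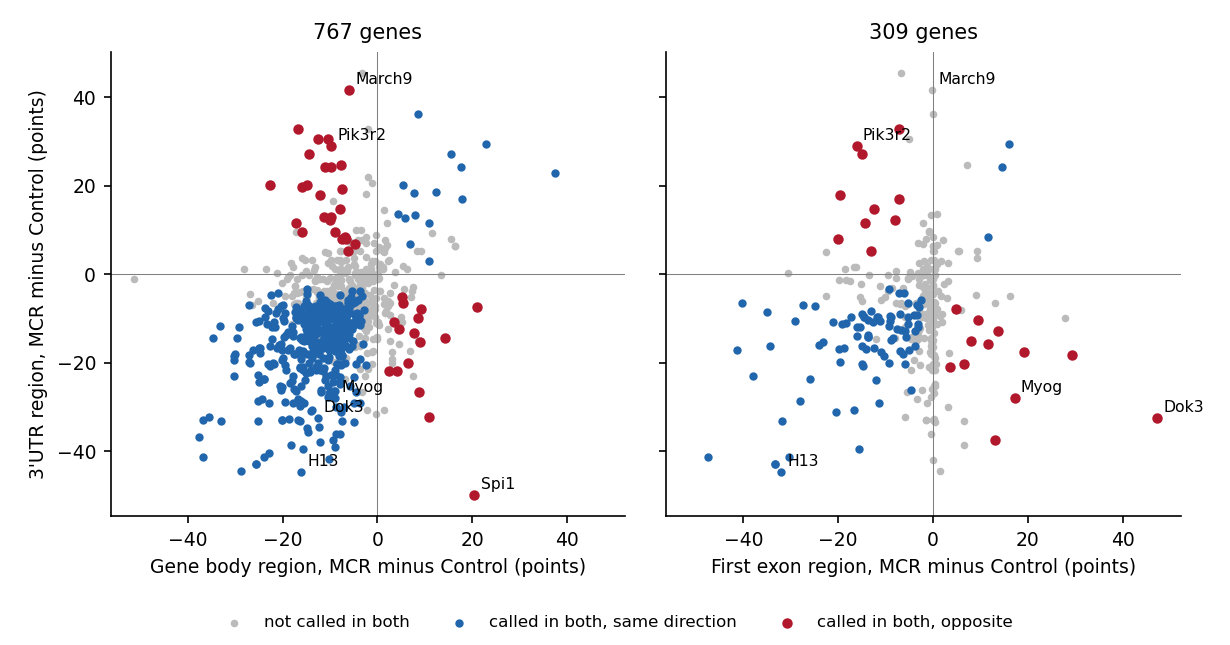
MCR minus Control difference in points of each gene's 3′UTR region (vertical axis) against that of its gene body (left, 767 genes) or first exon (right, 309 genes), with 1 point per gene, blue where both were called in the same direction and red where they were called in opposite directions. Spi1 lies at -49.8 points for the 3′UTR and +20.5 for the body, and Dok3 at -32.5 for the 3′UTR and +47.4 for the first exon.

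The 5 3′UTR regions with most CpGs are given whatever their values. Gm20388, a long predicted transcript on chromosome 8 whose 280 members are all also given to another gene, held 207 tested CpGs at 60.8 ± 0.10% in MCR against 69.8 ± 2.00% in Control (-9.03 points, limma adjusted p = 0.0016). Kdm6b, a histone H3 demethylase, had 38 CpGs at 45.98, 43.1 and 41.5% in MCR and 38.6, 46, 67.3 and 70.9% in LFCR, against 82.5, 84.95, 75.6, 74.2 and 78.8% in Control, a difference of -35.7 points in MCR. Sema6c, a semaphorin, was higher, with 28.6, 29.96 and 26.6% in MCR against 18.6, 12.7, 17.1, 24.9 and 18.8% in Control at 39 CpGs, +9.96 points (limma adjusted p = 0.0059). Gm26917, with 42 CpGs all in islands, read 53.03, 47.2 and 63.4% in MCR against 28.4, 53.2, 18.1, 56.3 and 39% in Control and was not called (+15.5 points, limma adjusted p = 0.25), with wide spread in both groups. H13, described above, was the fifth.

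Lists of marker and pathway genes had few members with a 3′UTR region. Of 30 leukocyte genes 3 had one, and all 3 were lower in MCR, beside 61.4% of the 898 3′UTR regions and 55.9% of all gene regions: Spi1, Dok3 (-32.5 points) and the interleukin 4 receptor gene Il4ra (-10.9 points, limma adjusted p = 0.025). Il4ra lost its call without MCR mouse 96 or Control mouse 2. The median of the 3 was -32.5 points, beside -9.23 over the 898 3′UTR regions and -6.90 over all 9008 gene regions. The lists were chosen with earlier results of these data known, so this median describes these 3 genes and is no test of leukocyte genes. Mir142hg, the host transcript of a blood cell microRNA and outside the list, was higher in MCR. Of 18 adipocyte genes 2 had a region. Pnpla2, which encodes adipose triglyceride lipase, was lower (61.1 ± 3.40% in MCR against 81.3 ± 4.07% in Control, limma adjusted p = 0.00099). The region of Lipe, hormone-sensitive lipase, shared with 4732471J01Rik, differed by +2.94 points and was not called (limma adjusted p = 0.39). The CpGs of this shared region, at chr7:25385153-25396520, overlap the span of the gene body CpGs of Lipe, at 25379998-25387033. They cannot be given to the 3′UTR of Lipe alone, so whether that 3′UTR differed is not known.

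Of the other cell markers, 1 of 2 endothelial regions was lower, the nitric oxide synthase gene Nos3 (-17.0 points), while Eng differed by -6.45 points (limma adjusted p = 0.057). The fibroblast gene Col5a1 (-10.4 points) and the muscle gene Myog (-27.97) were lower, each the only region of its list. The luminal epithelial gene Gata3 had 2.73, 1.54 and 3.78% in MCR against 1.47, 2.51, 1.97, 0.446 and 0.869% in Control and was not called. With a Control mean of 1.45%, this region had almost no room to be lower. Its 4 CpGs at chr2:9878866-9883264 also overlap the span of the first exon CpGs of Gata3, at 9877503-9882721. Regions from several of these lists were thus lower and others not called, beside 61.4% of all 898 3′UTR regions and 55.9% of all gene regions lower in MCR. The part of cell makeup in any of them was not tested. The lists of thermogenic fat and basal epithelial genes had no region.

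Of 30 insulin and PI3K-Akt-mTOR signalling genes, 4 had a region. Pik3r2 was higher, Igf2 was lower by a small margin (53.1 ± 4.304% in MCR against 57.7 ± 1.89% in Control, limma adjusted p = 0.047) with overlapping ranges, and Igfbp5 (-4.65 points) and the shared region Angptl7/Mtor (-2.64 points) were not called. Among 30 proteins that bind 3′UTRs or act on them, 5 had a region and 4 were lower, beside 61.4% of 3′UTR regions and 55.9% of all gene regions: Upf1, the helicase of nonsense-mediated decay (-22.9 points), Samd4b (-15.3), Gm15893/Msi2 (-12.96) and Msi1 (-6.62, limma adjusted p = 0.036), the last pair being Musashi proteins. Both regions of DNA methylation enzymes were lower, Dnmt3a by -6.42 points (79.5 ± 1.28% in MCR against 85.9 ± 3.45% in Control, limma adjusted p = 0.043) and Tet3 by -4.27 points (limma adjusted p = 0.039). Igf2, Msi1, Dnmt3a and Tet3 each lost their call when some single mouse was left out, and the regions of Samd4b, Tet3 and Igf2 are among those that span over 10000 bases. The microRNA pathway and cleavage and polyadenylation lists had no region, and in LFD and ICR no list had a called region by limma.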

How the data were processed

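Per the labels' protocols, DNA was extracted with TRIzol, cut with MspI and size-selected, and per the submitters' processing notes reads were aligned with Bismark to mm10. The authors deposited a methylation fraction per CpG and library, multiplied by 100 here, and an average coverage signal per CpG, which per the file headers is named cov and comes in steps of one read over 21 libraries. No read counts per library were used, so no counting interval is given. CpGs repeated in the table were counted once; a mean region level is the mean of its CpGs' means plus the mouse's mean deviation from them, for mice with a value at a share of at least 0.5 of its CpGs.

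CpGs needed an average coverage of 10 and a value in at least 3 mice of each of MCR, LFCR, LFD, ICR and Control. Fractions were fitted in a one-way model over the groups of 21 libraries with limma 3.58.1 in R 4.3.3, two-sided, with Benjamini-Hochberg adjustment over 129215 CpGs or 9008 gene regions of at least 3 CpGs; a call is an adjusted p under 0.05. The procedure was tested on simulated data. Sample groups come from the labels; where nothing says that samples came from separate cages or cohorts, p-values measure the spread between these mice. The titles name tumor while the source is contralateral normal tissue, and the source was used as the tissue.

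Regions named per comparison with Control were the 10 lower and 10 higher of largest difference among those called, or the 5 of smallest p with fewer calls than 10, the 3 CpGs of largest difference in each direction, up to 4 regions per gene list by p and the 5 regions with most CpGs. Regions on chromosome 18 were not named. The members, lists and rules were chosen with earlier results of these data known. Tables were handled with pandas 2.3.3 and figures with matplotlib 3.10.9. Alternatives were other filters, scales, region sizes, all 25 libraries and leaving out each mouse.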

Additional observations from a re-analysis of the deposited data

Results flagged for a closer look

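Control mouse 2 stood apart from the other Control mice at 2 named regions, with 81.3% at Adprhl2, where the other 4 read 59.4 to 64.0%, and 78.6% at Samd4b, where they read 72.2 to 73.5%. Groups of 4 or 5 mice were examined 104 times over the named regions, and chance flags about 1 in 20 groups.

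The 4 libraries outside the comparisons carried a signal absent from the rest. Over the 334 3′UTR CpGs under 5% in Control, LFD mouse 46 read 50.7%, Obese mouse 27 51.2%, Obese mouse 28 50.9% and Obese mouse 40 50.7%, against 1.48 to 1.66% in the Control mice. Over 1504 CpGs above 70% in Control the same 4 libraries read 78.9 to 87.4%, against 70.2 to 87.4% in the other 21.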

How the results depend on the processing

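The MCR results varied little: leaving out any mouse gave 2435 to 3239 called CpGs (main 3129), 540 to 630 regions (619) and a mean difference of -10.7 to -9.46 points. Regions of at least 5 CpGs gave 381 calls among 484 tested. LFCR rested on few mice. Its CpG calls (main 1164) ran from 1 (without LFCR 63 or 67) to 2167 (without LFCR 72), with 562, 82 and 632 without Control 1, 2 and 13, and 682 with all 25 libraries. Its region calls (407) ran from 0 to 517, with 245 at a difference of at least 10 points and 189 with all 25 libraries; its mean difference was -8.53 to -5.54 points.

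LFD CpG calls ran from 0 to 4 and region calls from 0 to 100, the highest of each without LFD 47. Its mean difference ran from -6.44 to -2.71 points, the smallest without LFD 42, and was -0.666 over 3012 CpGs with all 25 libraries, LFD 46 among them. ICR gave 0 to 1 CpGs, 0 regions and a mean of -4.005 to -2.76 points. MCR against LFCR gave 0 to 6 CpGs, and 0 on the arcsine scale or with all 25 libraries; LFCR against LFD gave 0 to 1. MCR against ICR (main 728) gave 159 with all 25 libraries and 72 to 1133 with a mouse left out (72, 130, 230 and 311 without ICR 112, 106, 105 and 102, 74, 191 and 230 without MCR 95, 96 and 85, 475 without Control 13, 1133 without LFCR 72); its region calls (308 lower, 27 higher) were 0 with all 25 libraries and fewest, 13 lower and 2 higher, without MCR 95.

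Directions changed only in regions that were not called: Gm26917 in LFCR (-5.93 to 7.06 points over mice left out, negative without LFCR 72 and, at -2.49, without Control 5), 4732471J01Rik/Lipe in LFCR (-1.07 to 0.993, negative without Control 2 and, at -0.792, without LFCR 72), Angptl7/Mtor in MCR (-5.48 to 0.841, positive without MCR 95) and Tet3 in LFCR (-2.15 to 0.569, positive without LFCR 63). The cause was not tested for any of these. Over the named regions, other settings kept 685 results on their side of the threshold, weakened 32 and strengthened 1, and leaving out mice kept 664, weakened 120, strengthened 14 and reversed 6. Adding CpGs with a second feature gave no value, since the table had none. No paired analysis was possible because the replicate numbers are those of single mice and no 2 groups share one. The unknown reads per mouse limit how well a single value is known.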
